A study of Mus musculus with 37 samples.

Results

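The genes described here are 31 genes of DNA replication and S phase, of 52636 genes in the deposited tables. They were chosen by symbol and matched to Ensembl identifiers: Mcm2 to Mcm7, Mcm10, Cdc6, Cdc45, Pola1, Prim1, Pcna, Rfc2, Fen1, Rrm1, Rrm2, Tyms, Ccne1, Ccne2, E2f1, Chaf1a, Chaf1b, Slbp, Uhrf1, Dtl, Clspn, Ung, Brca1, Brca2, Exo1 and Blm. All 31 had counts in each of the 37 libraries, and all 31 passed the filter on low counts. RNA was sequenced from mature luminal cells, the hormone-sensing epithelial cells of the mammary gland, sorted by FACS from mice aged 8 weeks. Every mouse, those of the placebo groups included, was ovariectomized and carried a pellet for 8 days. The pellet treatments were placebo, E2 (estradiol), P4 (progesterone) and E2+P4. The labels give 3 genotypes of Esr1, the gene of estrogen receptor alpha: WT, and the ER mutations D542G and Y541S. Each of the 12 combinations of genotype and treatment had 3 libraries, except WT P4 with 4. Strain, the number of mutant alleles and pellet doses are not stated in the labels. The submitters call the replicates biological, but no label says whether a library is 1 animal or a pool, and a p-value here reflects only how much these libraries vary.

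DNA replication is prepared in G1, when the origin recognition complex, CDC6 and CDT1 load the ring of MCM proteins onto origins, and it starts in S phase, when CDC45 and the GINS complex turn the ring into an active helicase. Polymerase alpha and primase begin each new strand, RFC loads the sliding clamp PCNA, FEN1 trims Okazaki fragments, ribonucleotide reductase and thymidylate synthase supply deoxynucleotides, and CAF-1 deposits histones behind the fork. Many of these genes are transcribed under E2F factors, which the retinoblastoma protein holds in check until cyclin-dependent kinases release them. Substitutions at the matching residues of the human receptor, in its ligand-binding domain, are known from breast cancers under hormone therapy and give a receptor that is active without ligand. In the adult mammary gland estrogen and progesterone drive epithelial proliferation, much of it through paracrine signals from hormone-sensing cells.

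Promoters of 4 members are shown because E2F binding is the feature most often described for genes of this kind. The sequences come from RefSeq on GRCm38.p6 and run from 250 bases before to 50 bases after the annotated start. Capitals mark the E2F core strings TTTCCCGC, TTTCGCGC, TTTGCCGC or TTTGGCGC, read on either strand. The first 3 sequences belong to members that hold such a string and passed the test described below in 3 comparisons, leaving aside those added later, and Chaf1b, which passed it in 4, more than any other member, holds none. The Mcm7 window lies at chr5:138171834-138172133 (minus strand), the Mcm3 window at chr1:20820263-20820562 (minus strand), the Pola1 window at chrX:93632106-93632405 (minus strand) and the Chaf1b window at chr16:93883651-93883950 (plus strand).
Mcm7: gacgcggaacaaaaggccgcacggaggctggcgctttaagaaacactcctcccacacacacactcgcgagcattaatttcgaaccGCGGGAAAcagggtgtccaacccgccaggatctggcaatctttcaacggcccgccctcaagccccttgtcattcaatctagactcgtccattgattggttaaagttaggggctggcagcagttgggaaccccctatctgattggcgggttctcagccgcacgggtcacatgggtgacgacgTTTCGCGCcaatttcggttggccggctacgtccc
Mcm3: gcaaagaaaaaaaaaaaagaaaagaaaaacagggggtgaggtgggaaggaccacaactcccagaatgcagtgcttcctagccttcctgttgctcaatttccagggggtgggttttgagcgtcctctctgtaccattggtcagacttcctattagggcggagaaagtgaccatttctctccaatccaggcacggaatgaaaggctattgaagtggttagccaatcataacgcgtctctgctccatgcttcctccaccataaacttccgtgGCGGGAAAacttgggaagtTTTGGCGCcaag
Pola1: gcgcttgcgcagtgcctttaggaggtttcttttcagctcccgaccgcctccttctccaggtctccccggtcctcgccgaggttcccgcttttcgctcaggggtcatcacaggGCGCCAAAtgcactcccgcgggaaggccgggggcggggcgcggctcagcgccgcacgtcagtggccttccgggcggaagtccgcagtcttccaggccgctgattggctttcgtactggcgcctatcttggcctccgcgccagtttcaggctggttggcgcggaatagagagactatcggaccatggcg
Chaf1b: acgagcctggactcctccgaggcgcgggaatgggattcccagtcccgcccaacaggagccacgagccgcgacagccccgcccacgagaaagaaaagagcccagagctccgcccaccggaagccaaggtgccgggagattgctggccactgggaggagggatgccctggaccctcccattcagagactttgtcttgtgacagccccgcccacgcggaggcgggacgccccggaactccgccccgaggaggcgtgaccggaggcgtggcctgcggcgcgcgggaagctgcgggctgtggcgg

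An E2F core string lay in 10 of 30 member promoters (33.3%), against 744 of 32851 promoters of all genes (2.26%). The 10 members were Mcm3, Mcm5, Mcm6, Mcm7, Cdc6, Pola1, Uhrf1, Dtl, Clspn and Brca2, of 27 members with an entry in the promoter table. Mcm4, Rfc2, Ccne2 and Exo1 had no entry. CCAAT, the box read by NF-Y, lay in 21 of 30 member promoters (70.0%) against 37.4% of all. The CHR strings TTTGAA and TTCGAA, an element best known from genes of mitosis, lay in 4 of 30 (13.3%) against 19.2%. CHR and CCAAT were also searched on both strands, TTCGAA reads the same on both, and neighbouring matches were allowed to overlap, as the TTTCGCGC and CCAAT of Mcm7 do by 1 base. Among the members tested under E2 in WT cells below, 6 of 13 that rose and 4 of 14 that did not pass the test held an E2F core string. These matches are descriptions of letters in a window, and a window without a match says nothing of the factor.

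Total counts per library ran from 25.69 M to 52.24 M, with a median of 41.26 M. Markers listed for hormone-sensing luminal cells summed to between 6470 and 18000 CPM (counts scaled to the library total) in every library. Krt18 alone averaged 5960, so this sum does not by itself show the purity of the sort. Luminal progenitor markers summed to between 653 and 24000 CPM. In WT E2 2 and WT E2 3 they reached 24000 and 21900, above the hormone-sensing sums of 8540 and 11800. Sums were 40 to 991 for 12 basal markers, 37.6 to 4120 for fibroblast and 8.48 to 231 for leukocyte markers. In bulk RNA, fewer cells of a type and less RNA per cell cannot be told apart. WT placebo 2 and WT P4 2 stood apart from the other libraries of their groups. WT placebo 2 was above both others of its group in 30 of 31 members, all but Ccne2, and in 30 of 30 mitosis genes. WT P4 2 was above all 3 others of its group in 27 of 31 members, all but Rfc2, Ccne2, Slbp and Blm, and in 30 of 30 mitosis genes. Both also held more basal marker RNA than any other WT library, at 991 and 881 CPM. Gene by gene, WT placebo 2 was above every other library of its group in 10 of 12 basal markers and WT P4 2 in 6 of 12. All groups share 1 estimate of the spread, so leaving both out also moves counts in comparisons that hold neither. Values below come from all 37 libraries unless a sentence says otherwise, and counts of members that moved by a wide margin without both are given both ways. The 2 libraries were picked out by their levels of these same genes. Leaving out libraries that are high raises contrasts against their groups by construction, so calls made without both are no separate support. The identifiers of Y541S placebo 5, WT P4 4 and WT P4 5 belong to a later number series than those of the other 34 libraries.

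The mean log2 CPM over the 31 genes summarises each library. WT placebo had means of 2.38, 4.31 and 2.74, and WT P4 had 4.01, 2.45, 2.61 and 2.66. Under E2 in WT cells it was 5.35, 4.52 and 3.79, and under E2+P4 5.06, 3.06 and 3.90. Libraries 1 of both E2 groups were the highest of their groups, and WT placebo 2 reached into the range of WT E2.

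In D542G cells the mean was 3.18, 2.41 and 3.86 under placebo, 3.87, 4.59 and 3.39 under E2, 4.23, 3.59 and 3.99 under P4, and 4.96, 4.37 and 5.02 under E2+P4. All 3 D542G E2+P4 libraries lay above all 3 D542G placebo libraries, whereas the single hormones overlapped placebo. In Y541S cells it was 4.26, 4.22 and 4.42 under placebo, 5.32, 4.72 and 5.19 under E2, 4.98, 4.94 and 4.85 under P4, and 5.34, 5.33 and 5.39 under E2+P4. Each hormone group of Y541S cells lay above the Y541S placebo libraries without overlap.

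Ordered by their mean, the groups ran from WT P4 (2.93), WT placebo (3.14) and D542G placebo (3.15) through D542G P4 (3.94), D542G E2 (3.95), WT E2+P4 (4.01), Y541S placebo (4.30), WT E2 (4.55), D542G E2+P4 (4.78), Y541S P4 (4.92) and Y541S E2 (5.08) to Y541S E2+P4 (5.35). Ranges of neighbours in this order overlapped except for Y541S E2 below Y541S E2+P4, whose lowest library, at 5.33, was just above the highest of Y541S E2, at 5.32. Within a group the means spread over 2.0 in WT E2+P4 and 1.93 in WT placebo, but over 0.06 in Y541S E2+P4 and 0.13 in Y541S P4.

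**Figure D1:**
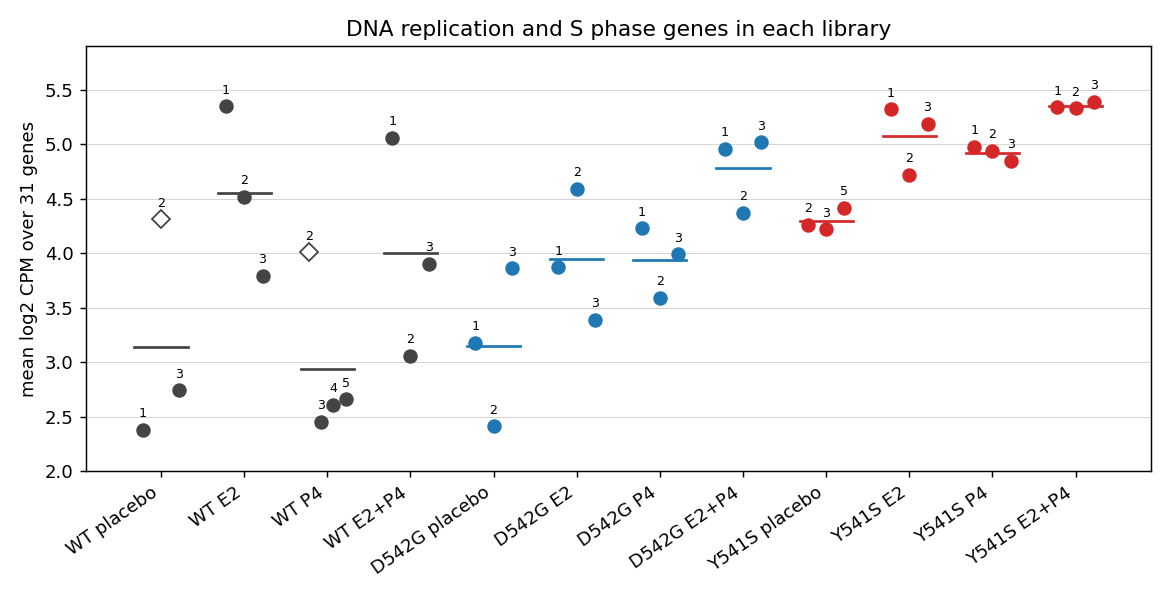
Mean log2 CPM over the 31 DNA replication and S phase genes (vertical axis) in each of the 37 libraries, by group; numbers are library numbers, bars are group means, colours are genotypes, and open diamonds mark WT placebo 2 and WT P4 2. The 3 Y541S E2+P4 libraries sit between 5.33 and 5.39, and the WT placebo libraries between 2.38 and 4.31.

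Genes differed in how far they varied. Over the 37 libraries the SD of log2(CPM + 0.5) was smallest for Slbp (0.37), Rfc2 (0.38) and Pcna (0.38) and largest for E2f1 (1.48), Mcm10 (1.48) and Uhrf1 (1.43). As the heat map of single genes shows, the same libraries were high or low for many genes. In Y541S E2+P4 3, 20 of the 31 genes were among their own 3 highest libraries and 10 at their highest, and in WT E2 1 it was 16 and 8. In WT P4 5, 16 genes were among their own 3 lowest, and in WT placebo 1 and WT P4 3 it was 14 each.

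**Figure D2:**
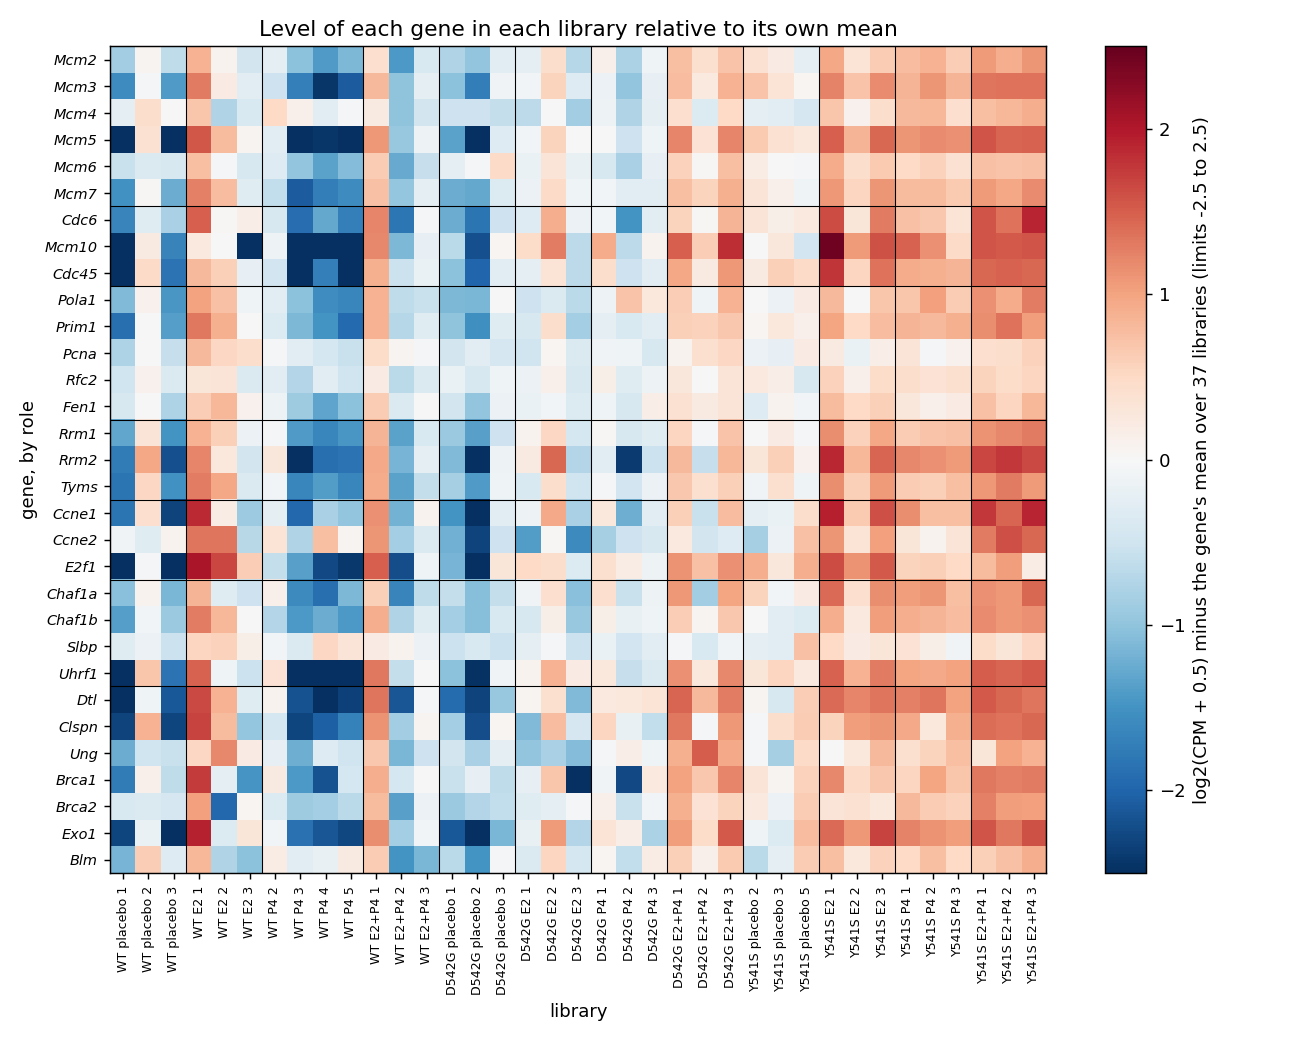
Level of each of the 31 genes (rows, grouped by role) in each library (columns, grouped by genotype and treatment), as log2(CPM + 0.5) minus the gene's mean over 37 libraries, with the colour scale cut at its ends. Most genes are red in the Y541S hormone groups and blue in WT placebo 1 and 3 and WT P4 3 to 5, while WT placebo 2 and WT P4 2 are pale or red.

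In the fit of all 37 libraries, E2 raised some replication genes in WT cells. Compared with WT placebo, 14 of 31 members rose and none fell: Mcm3, Mcm5 and Mcm7 of the helicase ring, the loader Cdc6, Pola1, Prim1, Pcna and Fen1 of the fork, E2f1, the histone chaperone subunit Chaf1b, Slbp, and Dtl, Ung and Exo1 of checkpoint and repair. Of all 18426 genes tested, 15.6% rose. The test was edgeR's quasi-likelihood test with Benjamini-Hochberg adjustment over all genes tested, at an adjusted p under 0.05, and a gene that passed is called changed. The median log2 fold change of the 31 was 1.24, against 0.03 over all genes, and 30 of 31 were positive. Without overlap between the groups' libraries were 8 members, against 39.1% of all genes. When WT placebo 2 and WT P4 2, picked out by these same genes, were left out, 21 members rose, with a median of 2.08. Of all genes 14.7% rose in that fit. The added ones were Cdc45, Rrm1, Rrm2, Tyms, Ccne1, Uhrf1 and Clspn.

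The count in WT cells under E2 rested on single libraries. Leaving out WT placebo 1 gave 5, leaving out WT placebo 3 gave 4 and leaving out WT E2 1 gave 7, and 21 with WT placebo 2 left out. The share of all genes called in fits without a single library is not reported here. Such counts, here and below, therefore cannot be set against all genes. Markers of other cells differed between the same groups. Of 10 leukocyte markers 5 rose, and their sum ran from 75.0 to 231 CPM under E2 against 8.48 to 11.8 under placebo. Ptprc, the pan-leukocyte marker, was at 0 in WT placebo 3, Cd3e in libraries 2 and 3 of both groups, and Laptm5 in WT E2 2. Of 7 tested luminal progenitor markers 6 rose (sums of 5220 to 24000 against 2790 to 3340 CPM), and of 11 hormone-sensing markers 8 fell and 2 rose. The part of these cells in the replication result was not tested.

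**Figure D3:**
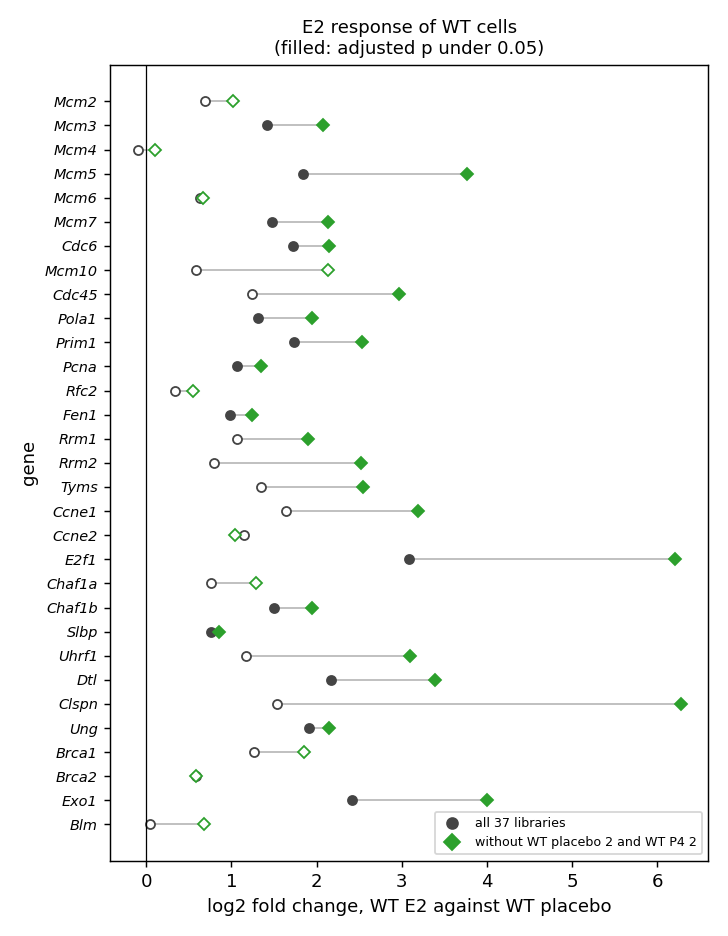
Log2 fold change of each gene in WT E2 against WT placebo (horizontal axis) in the fit of all 37 libraries (circles) and without WT placebo 2 and WT P4 2 (diamonds); filled symbols passed the test. Filled symbols number 14 with all libraries and 21 without the 2, and the diamonds lie to the right of the circles for most genes.

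No replication gene passed the test under P4 alone in WT cells, which does not show that none differed. edgeR called 0 of 31 members against WT placebo, DESeq2 called 0, 1 had an unadjusted p under 0.05, and 1.43% of all genes were called. The median log2 fold change was -0.37, and 6 of 31 values were positive. Without WT placebo 2 and WT P4 2 the median was -0.10, with 0 members and 0.745% of all genes called. Left out alone, WT P4 2 gave 1 member that fell.

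Under E2+P4 in WT cells only Pcna, the sliding clamp, rose against placebo among the 31, by 0.62 ± 0.22 (log2, SE; adjusted p = 0.0387), while 11.8% of all genes rose. The median was 0.77, and 0 of 31 members were without overlap between the groups' libraries, against 38.7% of all genes. With WT placebo 2 and WT P4 2, picked out by these same genes, left out, 18 members rose, with a median of 1.42, where 11.1% of all genes rose. Among the 18 were Mcm5 (3.09 ± 0.56, adjusted p = 0.00021), Uhrf1 (3.02 ± 0.66, adjusted p = 0.00148) and Prim1 (1.79 ± 0.43, adjusted p = 0.00334). Leaving out WT placebo 2 alone gave 16 and leaving out WT E2+P4 2 gave 3, whereas leaving out WT placebo 1, WT placebo 3 or WT E2+P4 1 gave 0. Of 10 leukocyte markers 5 rose here too, with sums of 38.5 to 171 CPM against 8.48 to 11.8, while Cd3e was at 0 in all 3 WT E2+P4 libraries. Of 11 hormone-sensing markers 7 fell and 2 rose (7710 to 15300 against 10500 to 15000 CPM), and of 7 luminal progenitor markers 1 rose (3840 to 7690 against 2790 to 3340). Their part in the result was not tested.

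Set against WT P4, which shares the progesterone, WT E2+P4 had 9 members that rose and none that fell: Mcm3, Mcm5, Mcm7, Cdc6, Cdc45, Pola1, Prim1, Fen1 and Chaf1b. Of all genes 12% rose, and the median of the members was 1.12. Only 1 of 31 members did not overlap between the groups' libraries, against 31.2% of all genes. The count of members that rose was 20 without WT P4 2, with or without WT placebo 2, and without both 12.2% of all genes rose. It was 14 without WT E2+P4 2, 4 without WT P4 3, WT P4 4 or WT P4 5, and 0 without WT E2+P4 1. With the libraries of the earlier identifier series alone, where WT P4 has 2 libraries, 0 members passed. Against WT E2, WT E2+P4 had 0 of 31 members called by edgeR or DESeq2, with 0 at an unadjusted p under 0.05 and 18.5% of all genes called. The median was -0.52 and 1 of 31 log2 values was positive. Without WT E2+P4 1, 7 members fell.

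In D542G cells many replication genes were higher under both hormones together. Of 31 members 16 rose against D542G placebo: Mcm2, Mcm3, Mcm5 and Mcm7, Cdc6 and Cdc45, Pola1, Prim1, Pcna and Fen1, Rrm1, Chaf1b, and Dtl, Ung, Brca2 and Exo1. None fell, the median was 1.47 and all 31 were positive, while 13% of all genes rose. No overlap between libraries was seen for 24 of 31 members, against 44.7% of all genes. The count was 5 without D542G placebo 1 and also without D542G placebo 2, 8 without D542G E2+P4 1 and also without D542G E2+P4 3, and 18 without D542G placebo 3. It was 21 without WT placebo 2 and WT P4 2, where 12.9% of all genes rose. Of 11 hormone-sensing markers 7 fell and 1 rose in the same comparison (sums of 6470 to 7700 CPM against 13200 to 15200), and of 7 luminal progenitor markers 3 rose and 1 fell (1360 to 2770 against 947 to 1960). Of 10 leukocyte markers 2 rose (71.1 to 109 against 11 to 24.5). Fibroblast markers had 4 of 8 higher, with sums of 154 to 455 CPM against 261 to 941, and so did 3 of 12 basal markers (270 to 401 against 48.2 to 397). Dpt was at 0 in D542G placebo 1, D542G placebo 2 and D542G E2+P4 1. Their part in the result was not tested.

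Single hormones gave few calls in D542G cells. E2 raised Exo1, the exonuclease of mismatch and break repair, by 2.47 ± 0.80 (adjusted p = 0.0331), the 1 member called, where 8.36% of all genes rose. Without WT placebo 2 and WT P4 2, which are not in this comparison, 5 members rose: Exo1, Mcm5 (1.36 ± 0.44, adjusted p = 0.0349), Mcm7, Rrm1 and Dtl. Of all genes 8.33% rose in that fit. With all libraries the call of Exo1 was lost without D542G placebo 1 (adjusted p = 0.124), D542G placebo 2 (0.153) or D542G E2 2 (0.184), and 2 members were called without D542G placebo 3. P4 changed 0 of 31 members by edgeR and 2 by DESeq2, with 3 at an unadjusted p under 0.05 and 18.4% of all genes called. Left out alone, D542G placebo 3 gave 2 and D542G P4 3 gave 1. Leaving out WT placebo 2 and WT P4 2 gave 2, Dtl and Exo1, where 17.7% of all genes were called. The libraries of the earlier identifier series gave 2 as well. The medians were 0.66 under E2 and 0.68 under P4. These groups and D542G E2+P4 share their placebo libraries.

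Few members passed the test between Y541S cells with and without hormone. Under E2+P4, Mcm4 of the helicase ring rose by 1.13 ± 0.31 (adjusted p = 0.0117) and Chaf1b by 1.34 ± 0.36 (adjusted p = 0.0103), where 8.43% of all genes rose. The median of the members was 1.06, 27 of 31 did not overlap between the groups' libraries (34.6% of all genes), and 14 had an unadjusted p under 0.05. The count was 4 without Y541S placebo 5, and 7 without WT placebo 2 and WT P4 2, where Mcm7, Pola1, Prim1, Fen1 and Rrm1 were added and 8.21% of all genes rose. Under P4, Mcm4 was the 1 member that rose, by 1.01 ± 0.31 (adjusted p = 0.0347), where 5.14% of all genes rose. That call was lost without any 1 of the 3 placebo libraries or without Y541S P4 1 or 2, with adjusted p from 0.0746 to 0.108. Without WT placebo 2 and WT P4 2 it held and Chaf1b was called too, where 4.89% of all genes rose. Under E2, edgeR and DESeq2 called 0 of 31, with 3 at an unadjusted p under 0.05 and 4.65% of all genes called, and the median was 0.78. In the fit of the libraries of the earlier identifier series, 1 member rose under E2 and 0 under P4.

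**Figure D4:**
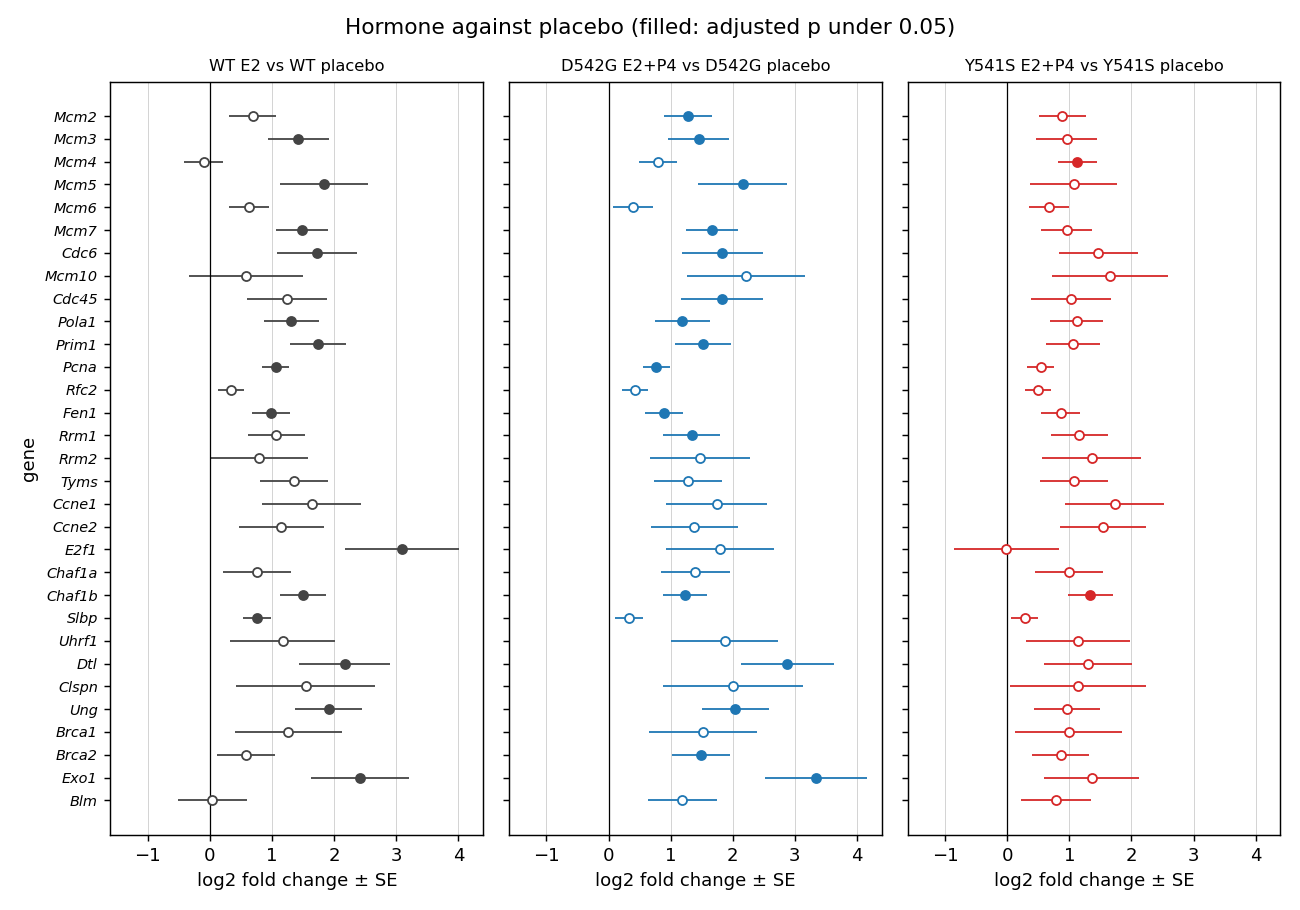
Log2 fold change ± SE of each gene (rows, in the order of roles) against the placebo group of its genotype, for WT E2, D542G E2+P4 and Y541S E2+P4; filled points passed the test. Filled points number 14, 16 and 2, and most points of all 3 panels lie above 0.

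Placebo groups of different genotypes were compared next. D542G placebo had 0 of 31 members called against WT placebo by edgeR and DESeq2, with 2 at an unadjusted p under 0.05 and 2.02% of all genes called, and the median was -0.17. Without WT placebo 2 and WT P4 2 the median turned to 0.62 and 1 member, E2f1, was higher (3.86 ± 0.90, adjusted p = 0.0275), where 0.813% of all genes were higher. The WT placebo libraries left held only 0.209 and 0.758 CPM of E2f1, so the size of that change is uncertain. With WT placebo 2 alone left out, 1 member was called. Y541S placebo had 0 members called by edgeR and 2 by DESeq2 against WT placebo, with 6 at an unadjusted p under 0.05 and 13.4% of all genes called, and a median of 0.82. Leaving out WT placebo 2 and WT P4 2, 15 members were higher in Y541S placebo, with a median of 1.54, where 7.47% of all genes were higher. Because WT placebo 2 was picked out by its high levels of these same genes, calls made without it are no separate support for either mutant. Among the 15 were Mcm5 (3.28 ± 0.56, adjusted p = 0.000235), Cdc45 (2.95 ± 0.56, adjusted p = 0.000691) and Mcm3 (1.90 ± 0.48, adjusted p = 0.00877). The count was 12 when only WT placebo 2 was left out. Leukocyte and fibroblast markers were higher in Y541S placebo too, with 3 of 10 and 2 of 8 called and fibroblast sums of 445 to 4120 CPM against 37.6 to 321. Of 11 hormone-sensing markers 5 were lower and 1 higher (sums of 9360 to 13000 against 10500 to 15000 CPM). Higher as well were 2 of 7 luminal progenitor, 2 of 12 basal and 1 of 8 endothelial markers. Their part was not tested.

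The genotypes were then compared under the same hormone, in 6 comparisons that were added after the levels had been seen. Under P4, Y541S cells had 24 of 31 members higher than WT cells and none lower. The 7 others were Mcm4, Pcna, Ccne1, Ccne2, Slbp, Brca1 and Blm. The median was 1.89 with all 31 positive, 28 did not overlap (43.2% of all genes), and 14.6% of all genes were higher. The count stayed between 19 and 26 without any 1 library and was 26 without WT placebo 2 and WT P4 2, where 14.4% of all genes were higher. In the libraries of the earlier identifier series, which leaves 2 WT P4 libraries of which WT P4 2 is one, it was 8. Of 30 mitosis genes 18 were higher too, and 29 without WT placebo 2 and WT P4 2. Luminal hormone-sensing markers fell in 7 of 11 (sums of 7630 to 9060 against 13500 to 15900 CPM).

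D542G cells under P4 had 3 members above WT cells, Mcm7, Pola1 and Chaf1b, where 6.24% of all genes were higher, and a median of 0.83. Without overlap between libraries were 6 of 31 members, against 23.1% of all genes. The count of higher members was 17 without WT placebo 2 and WT P4 2, where 6.75% of all genes were higher. It was 14 without WT P4 2 alone, 1 without WT P4 3, WT P4 4, D542G P4 1 or D542G P4 2, 2 without D542G P4 3, and 0 without WT P4 5 or within the earlier identifier series. Under E2, D542G cells had 6 members below WT cells: Pola1, Pcna, Ccne2, Chaf1b, Slbp and Ung, where 13.8% of all genes were lower, and a median of -0.67. In this comparison 6 of 31 members did not overlap between libraries, against 34.6% of all genes. The count of lower members was 2 without WT E2 1 and also without D542G E2 3, 3 without WT E2 2 and also without D542G E2 1, and 8 without WT E2 3. Luminal progenitor markers were lower in 5 of 7 in this comparison (sums of 653 to 1810 against 5220 to 24000 CPM), and hormone-sensing markers higher in 9 of 11. Y541S cells under E2 had 0 of 31 called by either tool against WT cells, with 2 at an unadjusted p under 0.05, a median of 0.36 and 12.3% of all genes called. Without WT E2 1, 1 member was higher, and without WT placebo 2 and WT P4 2 Mcm10 was (2.27 ± 0.73, adjusted p = 0.0425), where 6.47% of all genes were higher.

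Under E2+P4, Mcm2, Mcm4 and Rfc2 were higher in Y541S than in WT cells, by 1.31 ± 0.38 (adjusted p = 0.0183), 1.16 ± 0.31 (adjusted p = 0.0115) and 0.75 ± 0.21 (adjusted p = 0.0159), where 6.03% of all genes were higher. All 31 log2 values were positive with a median of 1.16, and 26 did not overlap (35.5% of all genes). The count was 9 without WT placebo 2 and WT P4 2, where 6.17% of all genes were higher. It was 17 without WT E2+P4 1, 2 without Y541S E2+P4 1 or 3, and 0 without WT E2+P4 2 or WT E2+P4 3. In D542G cells 0 of 31 passed in edgeR and 1 in DESeq2, with 3 at an unadjusted p under 0.05, a median of 0.61 and 6.69% of all genes called, and 5 were higher without WT E2+P4 1. The mutants share their WT libraries in these comparisons.

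Whether a mutant responded differently from WT cells was tested as an interaction, the hormone effect of the mutant minus that of WT cells. Ung, the uracil DNA glycosylase, differed for E2 in D542G cells, by -2.72 ± 0.76 (adjusted p = 0.0214), the only member called where 4.71% of all genes were lower. Mcm4 differed for E2+P4 in Y541S cells, by 1.55 ± 0.44 (adjusted p = 0.0250), the only one where 3% of all genes were higher. No member was called by edgeR for P4 or E2+P4 in D542G cells or for E2 or P4 in Y541S cells, where 3.35%, 4.3%, 8.02% and 7.33% of all genes were called. At an unadjusted p under 0.05 these had 7, 2, 1 and 5 members, and DESeq2 called 0, 0, 1 and 1. Single WT libraries moved these counts: without WT P4 2 it was 2 for P4 in D542G cells and 4 in Y541S cells, without WT E2+P4 1 it was 2 for E2+P4 in D542G cells, without WT E2 1 it was 1 for E2 in Y541S cells, and without WT placebo 1 it was 1 for P4 in Y541S cells.

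Interactions that use WT placebo changed without WT placebo 2 and WT P4 2. As these 2 libraries were picked out by these same genes, calls made without them are no separate support. For E2, 7 members were then lower in D542G cells than in WT cells (median -1.18 against -0.47 with all libraries), and 5 in Y541S cells (-1.31 against -0.52). Of all genes 4.89% and 4.1% were lower in these 2 interactions. The 7 were Mcm5, Pola1, Prim1, Pcna, E2f1, Clspn and Ung, and the 5 were Mcm5, Prim1, Pcna, E2f1 and Clspn, against the same WT libraries. With only WT placebo 2 left out the counts were 4 and 5. For E2+P4 in Y541S cells 2 members, E2f1 and Clspn, were lower and Mcm4 was no longer called (adjusted p = 0.0721), and the median went from 0.30 to -0.37. Of all genes 4.51% were lower there. With only WT placebo 2 left out, 1 member was lower. The median for E2+P4 in D542G cells went from 0.79 to -0.05.

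Values by library follow, by role, in CPM and in the order of library numbers: 1, 2 and 3, except 2, 3, 4 and 5 in WT P4 and 2, 3 and 5 in Y541S placebo. Calls of single genes made without WT placebo 2 and WT P4 2 are no separate support, since these same genes picked out those libraries. MCM2 to MCM7 form the ring that unwinds DNA. Of these 6, 3 rose under E2 in WT cells and 4 under E2+P4 in D542G cells.

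Mcm7 in WT cells stood at 9.24, 27.7 and 11.3 CPM under placebo, 65.8, 47 and 21.9 under E2, 17.7, 6.06, 7.84 and 8.91 under P4, and 45.7, 13.8 and 23 under E2+P4. Mcm7 in D542G cells measured 11.2, 10.9 and 21.5 CPM under placebo, 24.6, 38.4 and 25.2 under E2, 26.2, 22.6 and 22.5 under P4, and 46.2, 40.5 and 51.2 under E2+P4. Mcm7 in Y541S cells reached 34.5, 29.7 and 25.4 CPM under placebo, 58.2, 39.8 and 59.6 under E2, 47.9, 47.7 and 43.4 under P4, and 57.3, 54.2 and 63 under E2+P4. WT E2 and WT placebo overlapped only through WT placebo 2, the 3 D542G E2+P4 libraries were above all D542G placebo libraries, and Y541S P4 was above all of WT P4. Mcm7 (chr5:138164583-138172422) has 14.8% of its exon bases within the spans of overlapping genes. It rose by 1.48 ± 0.42 under E2 in WT cells (adjusted p = 0.0077) and by 1.66 ± 0.42 under E2+P4 in D542G cells (adjusted p = 0.00425). It was higher by 2.19 ± 0.39 in Y541S P4 than in WT P4 (adjusted p = 0.000105). The call under E2 in WT cells was lost without WT placebo 1 (adjusted p = 0.0592), WT placebo 3 (0.0529) or WT E2 1 (0.0655).

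Mcm3 in WT cells stood at 28.5, 82.3 and 31.6 CPM under placebo, 212, 98.6 and 69.8 under E2, 59.8, 25.7, 15.4 and 19.8 under P4, and 149, 42.3 and 73.4 under E2+P4. Mcm3 in D542G cells measured 41.8, 25.5 and 80.5 CPM under placebo, 81.4, 126 and 67.8 under E2, 76.6, 42.7 and 74.1 under P4, and 145, 101 and 157 under E2+P4. Mcm3 in Y541S cells reached 140, 108 and 88.1 CPM under placebo, 201, 141 and 195 under E2, 155, 183 and 154 under P4, and 215, 218 and 220 under E2+P4. WT placebo 2 exceeded WT E2 3, and D542G E2+P4 stood clear of D542G placebo. Mcm3 (chr1:20802968-20820312) rose by 1.42 ± 0.49 under E2 in WT cells (adjusted p = 0.0286), a call lost without WT placebo 1 (0.134), WT placebo 3 (0.127) or WT E2 1 (0.236), and by 1.45 ± 0.49 under E2+P4 in D542G cells (adjusted p = 0.0308), lost without D542G placebo 1 (0.105), D542G placebo 2 (0.157), D542G E2+P4 1 (0.0696) or D542G E2+P4 3 (0.0873). It was higher by 2.44 ± 0.46 in Y541S P4 than in WT P4 (adjusted p = 0.000201).

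Mcm4 in WT cells stood at 87.9, 139 and 102 CPM under placebo, 166, 60.3 and 78.5 under E2, 146, 112, 84.1 and 101 under P4, and 120, 50.5 and 74.6 under E2+P4. Mcm4 in D542G cells measured 71.2, 71.8 and 67.4 CPM under placebo, 64.8, 102 and 56.2 under E2, 93.7, 60.3 and 87.3 under P4, and 138, 81.1 and 146 under E2+P4. Mcm4 in Y541S cells reached 88.2, 85.3 and 76.2 CPM under placebo, 166, 110 and 139 under E2, 180, 183 and 138 under P4, and 172, 182 and 192 under E2+P4. Mcm4 (chr16:15623897-15637400) overlapped placebo in its WT E2 libraries, of which 2 of 3 were below every placebo library, while the Y541S P4 and E2+P4 libraries were all above Y541S placebo. The log2 fold change under E2 in WT cells was -0.10 ± 0.31 (adjusted p = 0.834). Its interaction for E2+P4 in Y541S cells, given above, was lost without WT placebo 2 (adjusted p = 0.0771), WT E2+P4 2 (0.0888), WT E2+P4 3 (0.0609), Y541S E2+P4 3 (0.0533) or Y541S placebo 5 (0.0538). Its call between Y541S and WT cells under E2+P4 was lost without WT E2+P4 2 (0.102) or WT E2+P4 3 (0.0599).

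Mcm2 in WT cells stood at 61.6, 119 and 72.7 CPM under placebo, 207, 120 and 81.9 under E2, 95.3, 55.7, 41.9 and 51.7 under P4, and 152, 41.3 and 86.6 under E2+P4. Mcm2 in D542G cells measured 67.2, 57.2 and 93 CPM under placebo, 96.1, 153 and 69.1 under E2, 123, 65 and 105 under P4, and 191, 150 and 185 under E2+P4. Mcm2 in Y541S cells reached 148, 131 and 96.1 CPM under placebo, 222, 143 and 176 under E2, 195, 208 and 175 under P4, and 237, 214 and 243 under E2+P4. The WT E2 libraries overlapped WT placebo, D542G E2+P4 did not overlap its placebo, and Y541S P4 was above all of WT P4. Mcm2 (chr6:88883474-88898780) stood 0.69 ± 0.38 above placebo under E2 in WT cells, which did not pass (adjusted p = 0.166), rose by 1.28 ± 0.38 under E2+P4 in D542G cells (adjusted p = 0.0136), lost without D542G placebo 1 (0.0529) or D542G placebo 2 (0.0760), and was higher by 1.66 ± 0.35 in Y541S P4 than in WT P4 (adjusted p = 0.000663).

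Mcm5 (chr8:75109569-75128439) spread more than any other ring subunit, from 10.2 CPM in WT P4 5 to 244 in Y541S E2+P4 1, and in WT placebo it measured 11.2, 107 and 11.6. It rose by 1.84 ± 0.71 under E2 in WT cells (adjusted p = 0.0491) and by 3.77 ± 0.58 without WT placebo 2 and WT P4 2 (adjusted p = 2.12e-05). With all libraries the call was lost without WT placebo 1 (0.196), WT placebo 3 (0.198), WT E2 1 (0.180) or WT E2 2 (0.0741). Mcm6 (chr1:128331590-128359664) was at 0.63 ± 0.32 under E2 in WT cells (adjusted p = 0.14) and passed only in Y541S P4 against WT P4, where it was higher by 1.37 ± 0.30 (adjusted p = 0.00101).

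CDC6 helps load the ring, and MCM10 and CDC45 help start it. Cdc6 in WT cells stood at 1.18, 3.81 and 2.53 CPM under placebo, 14.4, 4.87 and 5.41 under E2, 3.52, 0.919, 1.67 and 1.11 under P4, and 11.9, 1.02 and 4.69 under E2+P4. Cdc6 in D542G cells measured 1.75, 0.999 and 3.2 CPM under placebo, 3.72, 9.49 and 4.29 under E2, 4.55, 1.37 and 3.87 under P4, and 7.28, 4.89 and 9.02 under E2+P4. Cdc6 in Y541S cells reached 6.12, 5.36 and 5.79 CPM under placebo, 15.9, 6.03 and 12.6 under E2, 8.34, 7.98 and 6.22 under P4, and 15.3, 13.1 and 19.3 under E2+P4. All WT E2 libraries were above all WT placebo libraries, WT E2 2 and 3 by little, and WT E2 1 was far above both. Cdc6 (chr11:98907801-98923940) rose by 1.72 ± 0.64 under E2 in WT cells (adjusted p = 0.0421), lost without WT placebo 1 (0.172), WT placebo 3 (0.103) or WT E2 1 (0.264), and by 1.83 ± 0.65 under E2+P4 in D542G cells (adjusted p = 0.0374), lost without D542G placebo 1 (0.112), D542G placebo 2 (0.162), D542G E2+P4 1 (0.0707) or D542G E2+P4 3 (0.110).

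Cdc45 in WT cells stood at 1.2, 15.3 and 2.67 CPM under placebo, 19.4, 16.8 and 9.4 under E2, 7.7, 1.35, 2.98 and 1.43 under P4, and 20.6, 7.33 and 9.66 under E2+P4. Cdc45 in D542G cells measured 5.13, 2.38 and 9 CPM under placebo, 9.27, 14 and 6.79 under E2, 14.9, 7.5 and 8.99 under P4, and 21.8, 12.9 and 23.7 under E2+P4. Cdc45 in Y541S cells reached 12.9, 16.7 and 15.4 CPM under placebo, 38.7, 16.1 and 28.9 under E2, 21.1, 20.5 and 20.1 under P4, and 30.5, 31.2 and 30.2 under E2+P4. WT placebo 2 lay within the WT E2 range, and D542G E2+P4 was above D542G placebo in all libraries. Cdc45 (chr16:18780447-18811987) was at 1.24 ± 0.65 under E2 in WT cells (adjusted p = 0.146) and at 2.97 ± 0.56 without WT placebo 2 and WT P4 2, where it passed (adjusted p = 0.000242). It rose by 1.82 ± 0.66 under E2+P4 in D542G cells (adjusted p = 0.0413), lost without D542G placebo 1 (0.113), D542G placebo 2 (0.179), D542G E2+P4 1 (0.0883) or D542G E2+P4 3 (0.107), and by 1.89 ± 0.60 in WT E2+P4 against WT P4 (adjusted p = 0.0228), lost without WT P4 3 (0.0716), WT P4 4 (0.0544), WT P4 5 (0.0788) or WT E2+P4 1 (0.172). Mcm10 (chr2:4989714-5012791) passed in Y541S P4 against WT P4, higher by 2.94 ± 0.88 (adjusted p = 0.0132), and in no other comparison.

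POLA1 and PRIM1 prime new strands, PCNA is the clamp that RFC loads, and FEN1 removes flaps. Pcna in WT cells stood at 4.31, 7.76 and 5.02 CPM under placebo, 13.8, 11.2 and 10.6 under E2, 7.36, 6.27, 5.57 and 5.06 under P4, and 10.8, 8.03 and 7.49 under E2+P4. Pcna in D542G cells measured 5.43, 6.31 and 5.65 CPM under placebo, 5.31, 7.97 and 5.9 under E2, 7.19, 7.12 and 5.67 under P4, and 8.24, 10.3 and 11.2 under E2+P4. Pcna in Y541S cells reached 6.93, 6.6 and 8.88 CPM under placebo, 9.05, 6.77 and 8.69 under E2, 9.69, 7.44 and 8.33 under P4, and 10.4, 10.6 and 11.7 under E2+P4. All 3 WT E2 libraries exceeded all 3 of WT placebo, and the 3 D542G E2 libraries were below all of WT E2. Pcna (chr2:132249162-132253314) rose by 1.06 ± 0.22 under E2 in WT cells (adjusted p = 0.000505), which held without each single library, and by 0.77 ± 0.22 under E2+P4 in D542G cells (adjusted p = 0.0101), lost without D542G E2+P4 3 (0.0532). In D542G E2 it stood at -0.89 ± 0.22 (log2) relative to WT E2 (adjusted p = 0.00275). Its pseudogene Pcna-ps2 had a median count of 146 against 300 for Pcna, so that the counting may have divided reads between them.

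Prim1 in WT cells stood at 5.72, 22.1 and 8.28 CPM under placebo, 56.5, 42 and 22.4 under E2, 17.6, 9.98, 7.65 and 5.41 under P4, and 41.1, 13.4 and 18.1 under E2+P4. Prim1 in D542G cells measured 10.9, 7.38 and 17.9 CPM under placebo, 16.7, 30.3 and 12.1 under E2, 19.1, 17 and 18.2 under P4, and 34, 33.4 and 36.1 under E2+P4. Prim1 in Y541S cells reached 23.1, 26.8 and 24.4 CPM under placebo, 44.6, 31.7 and 38.7 under E2, 40.4, 39.5 and 41.9 under P4, and 50.9, 57.7 and 46.7 under E2+P4. WT E2 cleared all of WT placebo by a small margin over WT placebo 2, and D542G E2+P4 and Y541S E2+P4 cleared their placebo groups. Prim1 (chr10:128015168-128030037) rose by 1.74 ± 0.45 under E2 in WT cells (adjusted p = 0.00388), which held without each single library, and by 1.52 ± 0.45 under E2+P4 in D542G cells (adjusted p = 0.0133), lost without D542G placebo 1 (0.0538) or D542G placebo 2 (0.0870). It was higher by 1.99 ± 0.41 in Y541S P4 than in WT P4 (adjusted p = 0.000562).

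Fen1 in WT cells stood at 3.71, 5.11 and 2.75 CPM under placebo, 8.01, 9.34 and 5.52 under E2, 4.58, 2.51, 1.73 and 2.23 under P4, and 8.12, 3.84 and 5.14 under E2+P4. Fen1 in D542G cells measured 3.54, 2.32 and 4.54 CPM under placebo, 4.44, 4.83 and 3.89 under E2, 4.7, 3.72 and 5.79 under P4, and 6.77, 6.03 and 6.49 under E2+P4. Fen1 in Y541S cells reached 3.94, 5.41 and 4.82 CPM under placebo, 9.18, 7.33 and 7.91 under E2, 6.26, 5.59 and 5.89 under P4, and 8.71, 7.6 and 9.42 under E2+P4. WT E2 and D542G E2+P4 stood above their placebo groups without overlap. Fen1 (chr19:10199132-10204169) rose by 0.98 ± 0.31 under E2 in WT cells (adjusted p = 0.0171), lost without WT placebo 1 (0.0574), WT placebo 3 (0.105) or WT E2 2 (0.0807), and by 0.89 ± 0.31 under E2+P4 in D542G cells (adjusted p = 0.0359), lost without any 1 of the libraries but D542G placebo 3 (0.0603 to 0.192). Of its exon bases 86.5% lie within the spans, introns included, of Tmem258 and Gm10143 on the other strand. The use of strand in the counting was not given, so its values are uncertain.

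Pola1 (chrX:93304767-93632155) rose by 1.31 ± 0.44 under E2 in WT cells (adjusted p = 0.0233), lost without WT placebo 1 (0.106), WT placebo 3 (0.13), WT E2 1 (0.101) or WT E2 2 (0.0578). It rose by 1.19 ± 0.44 under E2+P4 in D542G cells (adjusted p = 0.0448), lost without D542G placebo 1 (0.169), D542G placebo 2 (0.18), D542G E2+P4 1 (0.0978) or D542G E2+P4 3 (0.162). Its levels ran from 6.14 CPM in WT P4 5 to 49.4 in Y541S E2+P4 3. Rfc2 (chr5:134581366-134601805), with 28.3% of its exon bases within the span of Lat2, varied little, from 46.6 CPM in WT P4 3 to 117 in Y541S E2 1. It passed in Y541S P4 against WT P4 (0.85 ± 0.20, adjusted p = 0.00155) and in Y541S E2+P4 against WT E2+P4, given above.

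RRM1 and RRM2 are the subunits of ribonucleotide reductase, and TYMS makes thymidylate. Rrm2 in WT cells stood at 9.79, 67.6 and 7.1 CPM under placebo, 80, 41 and 24.7 under E2, 41.7, 4.33, 8.9 and 9.16 under P4, and 66.3, 14.9 and 29.1 under E2+P4. Rrm2 in D542G cells measured 15.6, 5.22 and 31.2 CPM under placebo, 39.8, 93.1 and 20.4 under E2, 28.5, 6.08 and 23.5 under P4, and 60.3, 22.7 and 61.3 under E2+P4. Rrm2 in Y541S cells reached 42, 52 and 36.7 CPM under placebo, 128, 60.8 and 94.8 under E2, 79.4, 76.1 and 71.6 under P4, and 110, 118 and 108 under E2+P4. WT placebo 2 exceeded WT E2 2 and 3, D542G E2+P4 2 was below D542G placebo 3, and Y541S P4 stood above all of WT P4. Rrm2 (chr12:24708241-24714146) was at 0.79 ± 0.79 under E2 in WT cells (adjusted p = 0.475), and passed there without WT placebo 2 and WT P4 2 (2.52 ± 0.75, adjusted p = 0.0118). It was higher by 2.24 ± 0.74 in Y541S P4 than in WT P4 (adjusted p = 0.0245), lost without WT P4 3 (0.0745), WT P4 4 (0.0713), WT P4 5 (0.0730), Y541S P4 1 (0.0552) or Y541S P4 2 (0.0523).

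Rrm1 in WT cells stood at 55.7, 173 and 48.3 CPM under placebo, 252, 207 and 125 under E2, 135, 51, 44.2 and 50 under P4, and 247, 54 and 106 under E2+P4. Rrm1 in D542G cells measured 72, 53.2 and 96.5 CPM under placebo, 147, 197 and 101 under E2, 141, 104 and 111 under P4, and 201, 133 and 226 under E2+P4. Rrm1 in Y541S cells reached 136, 158 and 135 CPM under placebo, 310, 206 and 270 under E2, 215, 226 and 229 under P4, and 302, 318 and 341 under E2+P4. WT placebo 2 lay within WT E2, and D542G E2+P4 cleared D542G placebo. Rrm1 (chr7:102441695-102469771) rose by 1.34 ± 0.46 under E2+P4 in D542G cells (adjusted p = 0.0318), lost without D542G placebo 1 (0.0866), D542G placebo 2 (0.138), D542G E2+P4 1 (0.0726) or D542G E2+P4 3 (0.103), and was higher by 1.67 ± 0.42 in Y541S P4 than in WT P4 (adjusted p = 0.00349). Tyms (chr5:30058202-30073617) ran from 5.25 CPM in WT placebo 1 to 49.9 in Y541S E2+P4 2 and was at 1.35 ± 0.55 under E2 in WT cells (adjusted p = 0.062), passing without WT placebo 2 and WT P4 2 (2.54 ± 0.51, adjusted p = 0.000472).

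E2F1 is the transcription factor of S phase genes, and cyclins E1 and E2 activate CDK2. E2f1 in WT cells stood at 0.209, 11.5 and 0.758 CPM under placebo, 50, 38.3 and 18.2 under E2, 7.61, 4.3, 2.08 and 1.81 under P4, and 34, 2.14 and 10.8 under E2+P4. E2f1 in D542G cells measured 4.95, 1.38 and 14.6 CPM under placebo, 16.8, 16.1 and 9.13 under E2, 15.7, 13.5 and 10.7 under P4, and 26.3, 19.8 and 26.5 under E2+P4. E2f1 in Y541S cells reached 22.4, 14.4 and 22.5 CPM under placebo, 37.3, 26 and 35 under E2, 17.5, 18 and 16.9 under P4, and 20.6, 24.6 and 13.5 under E2+P4. WT placebo 1 and 3 were under 1 CPM, WT placebo 2 was at the level of the D542G hormone libraries, and all WT E2 libraries stood above all of WT placebo. In Y541S cells the 3 E2 libraries were above the 3 E2+P4 libraries, a difference that was not tested. E2f1 (chr2:154559407-154569892) rose by 3.09 ± 0.92 under E2 in WT cells (adjusted p = 0.0109), the largest log2 value of the 31, and by 6.20 ± 0.99 without WT placebo 2 and WT P4 2 (adjusted p = 3.64e-05), while the call was lost without WT placebo 3 (0.0619). The size of the 6.20 is uncertain, because WT placebo 1 and 3 were so low. Under E2+P4 in Y541S cells E2f1 was at -0.01 ± 0.85 (adjusted p = 0.997). It was higher by 2.13 ± 0.81 in Y541S P4 than in WT P4 (adjusted p = 0.048), lost without any 1 of these libraries but WT P4 2 (0.0823 to 0.125).

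Ccne1 (chr7:38097984-38107534) ran from 0.477 CPM in D542G placebo 2 to 35.4 in Y541S E2 1 and passed in no comparison of all libraries, with 1.64 ± 0.80 under E2 in WT cells (adjusted p = 0.12), 3.19 ± 0.91 there without WT placebo 2 and WT P4 2 (adjusted p = 0.00935). Ccne2 (chr4:11191351-11204779), of whose exon bases 62.9% lie within the span of Ints8 on the other strand, was at 7.44, 7.50 and 1.46 CPM in WT E2 and 0.697, 2.73 and 0.547 in D542G E2. These ranges overlapped through WT E2 3, and it was called lower in D542G cells under E2 (-2.05 ± 0.71, adjusted p = 0.0284), lost without WT E2 1 (0.0892), WT E2 2 (0.0925), D542G E2 1 (0.122) or D542G E2 3 (0.124).

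CHAF1A and CHAF1B are subunits of CAF-1, SLBP binds the stem loop of histone mRNAs, and UHRF1 keeps DNA methylation through replication. Chaf1b in WT cells stood at 14.8, 37.3 and 20.5 CPM under placebo, 96.1, 70 and 38.8 under E2, 23.3, 14.2, 16.2 and 14.2 under P4, and 73.7, 23 and 31.8 under E2+P4. Chaf1b in D542G cells measured 21.6, 18.4 and 30.1 CPM under placebo, 29.6, 43.2 and 20.1 under E2, 43.4, 34.5 and 36.2 under P4, and 60.7, 41.2 and 62.5 under E2+P4. Chaf1b in Y541S cells reached 39.6, 32.3 and 31 CPM under placebo, 74.3, 46.5 and 81 under E2, 74.3, 70.9 and 67.4 under P4, and 89.5, 83.8 and 86.9 under E2+P4. The WT E2 libraries stood above WT placebo, those of D542G E2+P4 and Y541S E2+P4 above their placebo groups, and Y541S P4 above WT P4. Chaf1b (chr16:93883901-93906115) rose by 1.5 ± 0.37 under E2 in WT cells (adjusted p = 0.00235), by 1.34 ± 0.36 under E2+P4 in Y541S cells (adjusted p = 0.0103), both of which held without each single library, and by 1.23 ± 0.36 under E2+P4 in D542G cells (adjusted p = 0.0133), lost without D542G placebo 1 (0.0523) or D542G placebo 2 (0.0760). It had the smallest adjusted p of the 31 in Y541S P4 against WT P4 (2.06 ± 0.34, adjusted p = 4.03e-05).

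Slbp in WT cells stood at 34.7, 39.1 and 29.5 CPM under placebo, 63.1, 64.8 and 47.5 under E2, 40.8, 33.3, 61.5 and 54 under P4, and 49.5, 46 and 38.8 under E2+P4. Slbp in D542G cells measured 29.4, 32.8 and 29.6 CPM under placebo, 36.3, 41.8 and 29.4 under E2, 38.2, 30.8 and 35.3 under P4, and 41.9, 32.8 and 40.3 under E2+P4. Slbp in Y541S cells reached 36.3, 35.6 and 71.9 CPM under placebo, 61.4, 49.9 and 53.1 under E2, 55.6, 47.8 and 40.6 under P4, and 59.8, 53 and 61.9 under E2+P4. Y541S placebo 5, WT P4 4 and WT P4 5, the libraries of the later identifier series, were each above the others of their groups. WT E2 did not overlap WT placebo. Slbp (chr5:33634952-33652574) rose by 0.76 ± 0.22 under E2 in WT cells (adjusted p = 0.00903), lost without WT placebo 3 (0.0565), and was lower in D542G E2 than in WT E2 (-0.70 ± 0.22, adjusted p = 0.0164), lost without WT E2 1 (0.0536), WT E2 2 (0.0629) or D542G E2 3 (0.0895).

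Uhrf1 (chr17:56303321-56323486) measured 1.83, 34.6 and 5.53 CPM in WT placebo and 27.3, 1.92, 2.37 and 2 in WT P4, high in the 2 libraries that stand apart. Under E2 in WT cells it was at 1.17 ± 0.85 (adjusted p = 0.306), and without those libraries at 3.10 ± 0.66 (adjusted p = 0.000803). It was higher in Y541S P4 than in WT P4 by 2.33 ± 0.79 (adjusted p = 0.0281), lost without any 1 of these libraries but WT P4 2, with adjusted p from 0.0559 to 0.0863. Chaf1a (chr17:56040439-56072289), with 55.2% of its exon bases within the span of Ubxn6 on the other strand, was called only there, higher by 1.91 ± 0.52 (adjusted p = 0.00608).

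DTL is a subunit of the CRL4 ubiquitin ligase that destroys CDT1 in S phase, UNG removes uracil from DNA, and EXO1 resects DNA ends. Dtl in WT cells stood at 4.52, 27.4 and 6.43 CPM under placebo, 94.6, 54.3 and 23.8 under E2, 31.5, 6.17, 3.68 and 5.44 under P4, and 75.3, 6.37 and 28.5 under E2+P4. Dtl in D542G cells measured 7.41, 5.56 and 15.1 CPM under placebo, 31.2, 39.4 and 13.5 under E2, 35.4, 35.5 and 37.5 under P4, and 81.9, 52.6 and 72.4 under E2+P4. Dtl in Y541S cells reached 31, 22.4 and 45.5 CPM under placebo, 80, 70 and 75.5 under E2, 71.6, 75.7 and 60 under P4, and 86.4, 80.7 and 76.1 under E2+P4. WT placebo 2 was above WT E2 3, whereas D542G E2+P4 and Y541S E2+P4 were far above their placebo groups. Dtl (chr1:191537356-191575544) rose by 2.17 ± 0.73 under E2 in WT cells (adjusted p = 0.0241), lost without WT placebo 1 (0.116), WT placebo 3 (0.111) or WT E2 1 (0.123), and by 2.88 ± 0.75 under E2+P4 in D542G cells (adjusted p = 0.0053), which held without each single library.

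Exo1 in WT cells stood at 0.862, 5.49 and 0.702 CPM under placebo, 24.9, 4.81 and 7.83 under E2, 5.89, 1.35, 1.02 and 0.891 under P4, and 14.6, 3.23 and 5.91 under E2+P4. Exo1 in D542G cells measured 1.04, 0.454 and 2.54 CPM under placebo, 5.41, 13.6 and 3.54 under E2, 7.99, 7.01 and 3.39 under P4, and 13.4, 8.74 and 18.9 under E2+P4. Exo1 in Y541S cells reached 5.73, 4.8 and 11 CPM under placebo, 17.5, 13.7 and 21.3 under E2, 15.3, 14.2 and 13.3 under P4, and 19.4, 16.3 and 19.7 under E2+P4. WT placebo 2 was above WT E2 2, and D542G placebo was below every D542G hormone library. Exo1 (chr1:175880581-175913489) rose by 2.41 ± 0.79 under E2 in WT cells (adjusted p = 0.0207), lost without WT placebo 1 (0.101), WT placebo 3 (0.104) or WT E2 1 (0.190). Under E2+P4 in D542G cells it rose by 3.34 ± 0.82 (adjusted p = 0.00332), the largest log2 value of the 31 there, which held without each single library.

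Ung in WT cells stood at 0.392, 0.996 and 0.926 CPM under placebo, 2.49, 4.32 and 1.93 under E2, 1.33, 0.406, 1.18 and 0.986 under P4, and 2.86, 0.448 and 0.973 under E2+P4. Ung in D542G cells measured 1.02, 0.704 and 1.3 CPM under placebo, 0.553, 0.69 and 0.489 under E2, 1.54, 1.85 and 1.45 under P4, and 3.4, 5.53 and 3.53 under E2+P4. Ung in Y541S cells reached 1.57, 0.686 and 2.44 CPM under placebo, 1.6, 2.01 and 3.18 under E2, 2.29, 2.61 and 3.03 under P4, and 2.1, 3.71 and 3.32 under E2+P4. Under E2 all WT libraries were above all D542G libraries, and the D542G E2 libraries were each below all of D542G placebo. Ung (chr5:114130386-114139323) rose by 1.91 ± 0.54 under E2 in WT cells (adjusted p = 0.00765), lost without WT placebo 1 (0.0557) or WT E2 2 (0.0510), and by 2.04 ± 0.54 under E2+P4 in D542G cells (adjusted p = 0.00591). In D542G E2 it was at -2.33 ± 0.55 relative to WT E2 (adjusted p = 0.00194), which held without each single library. Its interaction for E2, given above, was lost without WT placebo 1 (0.0729), WT E2 2 (0.0704), D542G placebo 3 (0.0575) or D542G E2 3 (0.0502).

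Brca2 (chr5:150522630-150570329), a gene of homologous recombination, rose by 1.49 ± 0.47 under E2+P4 in D542G cells (adjusted p = 0.0193), lost without D542G placebo 1 (0.0737), D542G placebo 2 (0.0615) or D542G E2+P4 1 (0.0671), and was at 0.58 ± 0.46 under E2 in WT cells (adjusted p = 0.357), where WT E2 2 held 1.48 CPM against 15.1 and 7.40 in the others. Brca1 (chr11:101488764-101551955), its partner in break repair, was at 6.34, 12.3 and 0.0864 CPM in D542G E2 and passed in no comparison. Clspn (chr4:126556935-126593903), the adaptor of the replication checkpoint, was at 0.0522, 4.47 and 0.0561 CPM in WT placebo, the lowest of these from 2 counts, and at 8.26, 4.20 and 0.897 in WT E2. It passed in Y541S P4 against WT P4 (adjusted p = 0.0406), lost without any 1 of these libraries but WT P4 2 (0.0555 to 0.106), and no fold is given because its lowest libraries hold a few counts. Blm (chr7:80454733-80535119), a RecQ helicase, was at 0.04 ± 0.55 under E2 in WT cells (adjusted p = 0.974) and passed in no comparison, with levels from 1.70 CPM in WT E2+P4 2 to 11 in Y541S E2+P4 3.

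A list of 55 other replication genes, of which 52 were tested, was compared in the same way. Under E2 in WT cells 17 rose and 2 fell (median 0.82), and 32 rose and 1 fell without WT placebo 2 and WT P4 2 (median 1.25). Of all genes 15.6% rose, and 14.7% without those libraries. With all libraries they were led by the histone chaperone Nasp (1.65 ± 0.28), the polymerase epsilon subunit Pole2 (2.52 ± 0.48), the origin recognition subunit Orc6 (1.38 ± 0.27) and the licensing inhibitor Gmnn (2.13 ± 0.53). Under E2+P4 in D542G cells 24 rose and 1 fell (median 0.97), where 13% of all genes rose. They were led by the kinase Cdc7 (3.38 ± 0.59), with Pola2 at 1.28 ± 0.25 and Pold3, a polymerase delta subunit, falling (-0.68 ± 0.14). Under E2+P4 in Y541S cells 11 rose (median 0.78), among them Cdc25a (1.68 ± 0.42), where 8.43% of all genes rose. In Y541S P4 against WT P4 38 were higher and 1 lower (median 1.12), among them Pola2 (1.43 ± 0.23), and 43 and 1 without those libraries (median 1.46). Of all genes 14.6% were higher in that comparison, and 14.4% without those libraries. Cdc7 rose by 4.23 ± 0.61 under P4 in D542G cells (adjusted p = 3.74e-05), where 3 of the 52 rose (6 without those libraries), 1 fell and, with all libraries, no member of the 31 was called. Of all genes 9.49% rose there, and 9.14% without those libraries. Tk1, Gins2 and Cdt1 were at 0 in all libraries and overlap other genes, so their 0 was not read as absence.

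Genes of mitosis follow S phase in a dividing cell, and 30 of them were compared with the 31. Under E2 in WT cells 0 rose and 1 fell, with a median of 1.02, and without WT placebo 2 and WT P4 2 28 rose, with a median of 3.86. Of all genes 15.6% rose, and 14.7% without those libraries. Both libraries were the highest of their groups in all 30 of these genes, so calls made without them are no separate support. Mki67, the proliferation antigen, measured 1.04, 37.7 and 1.21 CPM in WT placebo and 35.2, 5.83 and 18.4 in WT E2 (0.57 ± 1.08, adjusted p = 0.728), so that the placebo group held both the highest and the lowest value. Top2a measured 2.09, 97.8 and 3.06 CPM against 90.7, 42.0 and 22.3, Cdk1 3.42, 38.4 and 2.47 against 82.4, 50.7 and 21, and Ccnb1 0.0522, 8.22 and 0.140 against 5.24, 4.11 and 1.39. None of these 4 passed there. Under E2+P4 2 of 30 mitosis genes rose in D542G cells and 0 in Y541S cells, with medians of 1.81 and 1.06. Of all genes 13% and 8.43% rose there. Without WT placebo 2 and WT P4 2 the counts of mitosis genes were 19 and 1, with medians of 1.81 and 1.07, where 12.9% and 8.21% of all genes rose. Under E2 in D542G cells 4 mitosis genes rose, and 13 without those libraries, where 8.36% and 8.33% of all genes rose.

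**Figure D5:**
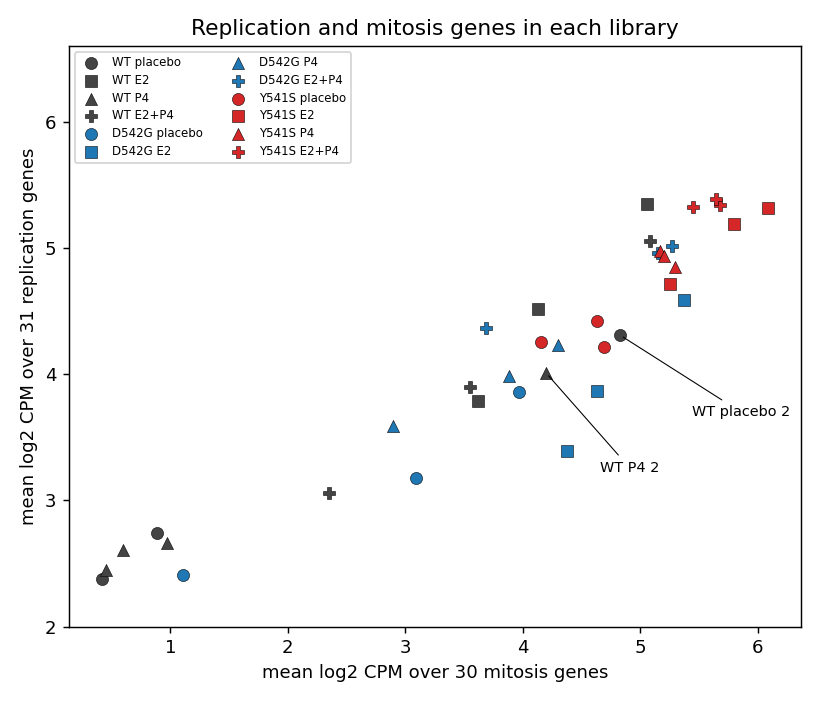
Mean log2 CPM over the 31 replication genes (vertical axis) against the mean over 30 mitosis genes (horizontal axis) in each library; colour is genotype and shape is treatment. WT placebo 2 (4.31 and 4.83) lies among the Y541S placebo libraries, far from WT placebo 1 (2.38 and 0.42) and WT placebo 3 (2.74 and 0.89).

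The mitosis means spread more than the replication means, from 0.42 to 6.09 over the 37 libraries. In the plot of both means, D542G E2 3 and D542G E2 1 had mitosis means of 4.38 and 4.63 at replication means of 3.39 and 3.87, and D542G E2+P4 2 had a mitosis mean of 3.69 at a replication mean of 4.37. The points share their libraries and sequencing depth, so this is a description.

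Regulators of the cycle moved under E2 in WT cells as well, with 5 of 17 higher and 3 lower, and 4 and 2 without WT placebo 2 and WT P4 2. Of all genes 15.6% were higher and 15.9% lower, and 14.7% and 14.3% without those libraries. Myc rose by 1.68 ± 0.31 (adjusted p = 0.000107), from 152, 163 and 122 CPM under placebo to 354 CPM or more in every E2 library, without overlap. Cdk6 rose by 1.58 ± 0.38 (adjusted p = 0.00194), Cdk4 by 0.64 ± 0.20 (adjusted p = 0.0136), the CDK inhibitor Cdkn1a by 0.75 ± 0.27 (adjusted p = 0.0325) and Trp53 by 0.55 ± 0.18 (adjusted p = 0.0212). Rbl2, a pocket protein that holds E2F targets down, fell by 0.79 on the log2 scale (SE 0.15, adjusted p = 0.000123), Ccnd3 fell by 0.55 (SE 0.12, adjusted p = 0.000581) and Cdkn2c fell by 0.88 (SE 0.31, adjusted p = 0.0312). Ccnd1, cyclin D1, was at 0.37 ± 0.29 (adjusted p = 0.359). Under E2+P4 in Y541S cells Myc rose by 1.51 ± 0.30 (adjusted p = 0.000816) and Ccnd1 fell by 0.84 (SE 0.30, adjusted p = 0.0471).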

How the data were processed

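Mature luminal cells, sorted by FACS, were profiled by RNA-seq from total RNA (Qiagen RNeasy Micro Plus, Nextera XT, per the labels). The authors deposited, for each library, a whole-number read count per gene, which was used for every test, and an RPKM value per gene, which the authors scaled by a gene width that equals the genomic span for 85.6% of genes and which was not used. The build was GRCm38, per the submitters' processing notes. The aligner, the counter and the use of strand are not given in the sources used here. Symbols and overlaps came from GENCODE M21 (52489 of 52636 identifiers matched).

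All 37 libraries, of 25.69 M to 52.24 M counts, entered 1 fit with a coefficient per group (edgeR 4.0.16 in R 4.3.3, quasi-likelihood with robust estimation, TMM factors of 0.77 to 1.17, filterByExpr by group, 18426 genes tested, 25 residual degrees of freedom, biological coefficient of variation 0.458). A gene was called at an adjusted p under 0.05, Benjamini-Hochberg over the genes of a comparison. CPM were scaled by library total and TMM factor, and log2 CPM had a prior count of 2. Interactions were differences of 2 hormone effects. Alternatives were RLE normalization, no filter, DESeq2 1.42.0, the replicate number as a block, leaving out WT placebo 2 and WT P4 2, the first identifier series alone and leaving out each library. The fit was tested on simulated counts for all 37 libraries, with means and spread taken from all groups (17979 genes tested). Changes were planted in WT E2 only, in genes above 1 CPM on average, and no library was made to stand apart. Against WT placebo it recovered 49% of 100 genes changed 2-fold and 80% of 100 changed 4-fold, with 7 false calls.

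The 31 genes, the other lists and the tests were chosen with earlier results of these data known, and 6 comparisons of genotypes under the same hormone were added after the levels were seen. Every member is named. Values in every library are given for the members with the smallest adjusted p of their role, up to 3 per role, and for Mcm2, Pcna, Rrm2 and E2f1. Other replication genes are up to 4 per comparison with the smallest p among those called, and some are not reported here. Figures and tables were made with Python 3.11.15, pandas 2.3.3 and NumPy 2.4.6.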

Additional observations from a re-analysis of the deposited data

Results flagged for a closer look

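In WT P4, 9 of 32 values set 1 library apart from the other 3 by the gap between it and its nearest neighbour, divided by the range of the group, against the 95% critical value of Dixon for 4 libraries. These were the CPM of Mcm5 (0.922), Mcm10 (0.949), Rrm1 (0.925), Rrm2 (0.871), Tyms (0.907), Uhrf1 (0.982), Dtl (0.91) and Exo1 (0.908), and the mean log2 CPM of the 31 genes (0.865). In all 9 the library apart was WT P4 2, and it was the highest. WT P4 2 was known to stand apart before this rule was run, and only its group was examined. The rate of about 1 group in 20 set apart by chance therefore does not apply here. The 9 values also share their libraries. WT P4 2 also had the highest level of all 30 mitosis genes in its group and a basal marker sum of 881 CPM against 81.2 to 85.1 in the others. Gene by gene it was the highest in 6 of 12 basal markers. The part of these in the gap was not tested.

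The response of Ung to E2 differed between D542G and WT cells, by -2.72 on the log2 scale, and the response of Mcm4 to E2+P4 differed between Y541S and WT cells, by 1.55. Both come from an interaction term, and both calls were lost without single libraries named in the report. Each was the only member called, where 4.71% of all genes were lower for Ung's interaction and 3% were higher for that of Mcm4. Ung was at 4.32 CPM or less in the groups compared, so the size of its difference is uncertain.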

How the results depend on the processing

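Counts of members called were recomputed under each alternative, for 25 comparisons of the 31 genes. With RLE normalization, D542G P4 against placebo and the interaction for E2 in Y541S cells each went from 0 to 1. DESeq2 gave 2 for D542G P4 (0 with edgeR), 2 for Y541S P4 (1), 4 for Y541S E2+P4 (2), 15 for WT E2+P4 against WT P4 (9), 2 for Y541S placebo against WT placebo (0), 7 for D542G P4 against WT P4 (3), 1 for D542G E2+P4 against WT E2+P4 (0), 9 for Y541S E2+P4 against WT E2+P4 (3), and 2, 1 and 1 for the interactions for E2 in D542G cells (1), E2 in Y541S cells (0) and P4 in Y541S cells (0). Without the filter on low counts, WT E2+P4, D542G E2 and Y541S P4 against placebo went to 0 and D542G E2+P4 to 9. With both WT placebo 2 and WT P4 2 left out the counts were 18 for WT E2+P4, 5 for D542G E2, 2 for D542G P4, 2 for Y541S P4 and 7 for Y541S E2+P4 against placebo, 20 for WT E2+P4 against WT P4, 1 and 15 for D542G and Y541S placebo against WT placebo, 17 for D542G P4 against WT P4, 1 for Y541S E2 against WT E2, 9 for Y541S E2+P4 against WT E2+P4, 7 and 5 (lower) for the interactions for E2 in D542G and Y541S cells, and 2 (lower, where 1 was higher) for E2+P4 in Y541S cells. This fit has fewer libraries behind its shared spread and tests 19058 genes. The first identifier series alone gave 2 for D542G P4, 1 for Y541S E2, 0 for Y541S P4, 0 for WT E2+P4 against WT P4, 0 for D542G P4 against WT P4, 8 for Y541S P4 against WT P4 and 0 for the interaction for E2+P4 in Y541S cells. The cause of these shifts was not tested.

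Libraries of the same number did not vary together: of 49 such pairs in 19 comparisons, correlations of their deviations ran from -0.5 to 0.56 (median 0.01), 3 were over 0.1, and 0 comparisons with 3 pairs had every pair over 0.1, while WT P4 against placebo, with 2 pairs, had 0.56 and 0.17. The samples share only a number. With a replicate block the counts were 0 for D542G E2, 0 for Y541S P4, 0 for WT E2+P4 against WT P4, 0 for D542G P4 against WT P4, 14 for Y541S P4 against WT P4 and 5 for Y541S E2+P4 against WT E2+P4.

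Leaving out 1 library at a time gave 4 to 21 for WT E2 against WT placebo, 0 to 1 for WT P4 against WT placebo, 0 to 16 for WT E2+P4 against WT placebo, 0 to 2 for D542G E2 against D542G placebo, 0 to 2 for D542G P4 against D542G placebo and 5 to 18 for D542G E2+P4 against D542G placebo. The range was 0 to 1 for Y541S P4 against Y541S placebo, 2 to 4 for Y541S E2+P4 against Y541S placebo, 0 to 20 for WT E2+P4 against WT P4, 0 to 7 for WT E2+P4 against WT E2, 0 to 1 for D542G placebo against WT placebo and 0 to 12 for Y541S placebo against WT placebo. It was 0 to 4 for the D542G E2 interaction, 0 to 2 for the D542G P4 interaction, 0 to 2 for the D542G E2+P4 interaction, 0 to 5 for the Y541S E2 interaction, 0 to 4 for the Y541S P4 interaction and 0 to 1 for the Y541S E2+P4 interaction. Counts were 2 to 8 for D542G E2 against WT E2, 0 to 1 for Y541S E2 against WT E2, 0 to 14 for D542G P4 against WT P4, 19 to 26 for Y541S P4 against WT P4, 0 to 5 for D542G E2+P4 against WT E2+P4 and 0 to 17 for Y541S E2+P4 against WT E2+P4. It was 0 in every such fit for Y541S E2 against Y541S placebo. The share of all genes called in these fits is not reported here.

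Of calls of single members, all 82 were kept with RLE normalization and all 82 with DESeq2, while 21 were lost without the filter and 29 with the block. The first identifier series kept 51 and lost 31, leaving out both libraries kept 81 and lost 1, and leaving out 1 library kept 363 and lost 177. No call changed sign. Depth limits Clspn, whose lowest library has 2 counts. Other members also came near the floor, among them Brca1, Ccne2, E2f1, Mcm10 and Ung, with 3, 6, 8, 12 and 14 counts in their lowest libraries. With 3 or 4 libraries a group, the simulation recovered 49% of 2-fold changes, so a member not called may still differ.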

Other observations

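Among replication genes outside the 31, some moved apart from the rest. Pold3, a subunit of polymerase delta, fell in 5 of 9 hormone comparisons with placebo: by 0.63 (log2, SE 0.14, adjusted p = 0.00193) under E2+P4 in WT cells, by 0.50 under E2 (SE 0.14, adjusted p = 0.018), 0.53 under P4 (SE 0.14, adjusted p = 0.0108) and 0.68 under E2+P4 (SE 0.14, adjusted p = 0.000876) in D542G cells, and by 0.47 under P4 in Y541S cells (SE 0.14, adjusted p = 0.035). Comparisons within a genotype share their placebo libraries. Under P4 in Y541S cells Rnaseh2a, the catalytic subunit of RNase H2, rose by 0.57 (SE 0.15, adjusted p = 0.014), and its response to P4 differed from that of WT cells, by 1.0 (SE 0.21, adjusted p = 0.00408). Cad, the first enzyme of pyrimidine synthesis, was higher in D542G E2 than in WT E2 by 1.66 (SE 0.34, adjusted p = 0.000402), where 6 of the 31 genes were lower.

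Some single libraries stood far from their groups for 1 gene. Mcm10 was at 0.628 CPM in WT E2 3 against 7.79 and 6.44 in the others, and Slbp was at 71.9, 61.5 and 54 CPM in Y541S placebo 5, WT P4 4 and WT P4 5, the libraries of the later identifier series. No explanation of these values was tested.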
